A study of Mus musculus with 2 samples.

Results

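The genes described here are *Sst*, which encodes the neuropeptide somatostatin, and *Sstr2*, which encodes one of its receptors. Both were taken by name from the cell-by-gene count tables, as 2 of the 500 genes of the probe panel. MERFISH, an imaging method that reads single RNA molecules in tissue through fluorescent barcodes, had been run on 1 coronal brain section of a control embryo and 1 of a *Dnmt1* knockout (KO) embryo, both at E16.5 and cut at 10 µm from flash-frozen heads. *Dnmt1* encodes a DNA methyltransferase. The control carried the *Sst* Cre allele (strain Ssttm2.l(cre)Zjh/J) and a tdTomato reporter (strain B6.CgGt(ROSA)26Sortm14(CAG-tdTomato)Hze). The KO carried both of these and the *Dnmt1* loxP2 allele (strain B6; 129S-Dnmt1tm2Jae/J). Cre is thus driven from the *Sst* locus in both sections, so the allele that marks the ligand's cells is shared by control and KO, and recombination is tied to cells that make or have made *Sst*. *Dnmt1*, Cre and tdTomato were not panel genes, so the deletion could not be checked in these data.

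Somatostatin is cut from a precursor and released by GABAergic interneurons, above all those born in the medial ganglionic eminence (MGE), and by peptidergic cells elsewhere in the brain. It acts through a family of inhibitory G protein-coupled receptors, of which SSTR2 is a major one in the forebrain. In the embryonic cortex, interneurons arrive from the subpallium by tangential routes, while projection neurons are made along the ventricle by radial glia and by intermediate progenitor cells (IPCs), which express *Eomes*. The study asked what DNMT1 does in SST+ interneurons, and as part of this how they may signal to cortical progenitors. The signal it tested there was ephrin B2. The place of *Sst* and *Sstr2* is given here as a description.

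In mouse genome GRCm39 (GENCODE vM39) *Sst* lies on chromosome 16 from 23707321 to 23711733 on the minus strand, and *Sstr2* on chromosome 11 from 113510145 to 113516862 on the plus strand. The deposited molecule lists tie every decoded *Sst* molecule to transcript ENSMUST00000004480, with 2 exons and 1723 bases of which 348 are coding, and every *Sstr2* molecule to ENSMUST00000146390, with 2 exons and 2166 bases of which 1107 are coding. The positions of single probes were not used here.

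The control section held 108533 segmented cells with a median of 20 panel transcripts and the KO section 110004 with a median of 101. Cells with at least 20 transcripts were kept, except where all cells are named, which left 55231 control and 101250 KO cells. With 1 section and 1 run per genotype, run and genotype cannot be told apart, no test was possible, and every interval below is a 95% counting interval (exact Poisson for sums, exact binomial for shares) that covers neither animals nor runs. The developing cortex was outlined as a pallial region, with an area of 3.46 mm² (control) and 3.39 mm² (KO), from 5 pallial and 12 subpallial genes. *Sst* and *Sstr2* were not among them, but *Eomes*, *Tbr1* and *Slc17a7* were, so that these mark the cortex by construction. The subpallial genes included *Gad1*, *Gad2* and *Lhx6*, which most cells rich in *Sst* also carried (below). Places rich in such cells were thus drawn away from the region by construction. Among the pallial genes, *Eomes* was more often found in cells rich in *Sstr2* (below), so places rich in those were drawn into the region. The pallial shares of *Sst*, of *Sstr2* and of their cells are not independent of the outline, and the size of these effects was not tested. The subpallial genes also included *Drd2*, *Adora2a*, *Rxrg*, *Oprm1*, *Penk* and *Tac1*, whose split by region is thus in part by construction. Of the cells over the minimum, 13726 of the control section and 30232 of the KO section lay in it.

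*Sst* and *Sstr2* lay in different places in both sections. Over all segmented cells, with no minimum, 25.9% of the control's *Sst* transcripts were in the pallial region, and in the KO 24.9%. These shares were close to the pallial share of all cells, 27.3% and 28.6%. Of all *Sstr2* transcripts, 71.8% were pallial in the control and 80.1% in the KO. By this outline the receptor was thus concentrated in the pallial region. The ligand's pallial share was near that of all cells, those of tissue outside the brain included.

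For single cells, a cell with at least 3 *Sst* transcripts was called *Sst*-positive and a cell with at least 3 *Sstr2* transcripts *Sstr2*-high. The control held 100 *Sst*-positive cells, of which 35 (35.0%, 25.7 to 45.2%) were pallial, and the KO 1032, of which 255 (24.7%, 22.1 to 27.5%) were. Of all cells over the minimum, 24.9% and 29.9% were pallial. Against all cells, the ligand's pallial share by cells was thus above in the control and below in the KO. All cells took in tissue outside the brain, whereas every *Sst*-positive cell lay inside the brain outline. Inside that outline, 13726 of 44223 control and 30232 of 83740 KO cells over the minimum were pallial. Against these, the control share's interval took in that of the cells, and the KO share stayed below. The control held 309 *Sstr2*-high cells, 84.8% of them pallial (80.3 to 88.6%), and the KO 5285, 86.2% of them pallial (85.2 to 87.1%). The KO was the deeper section, and with its transcripts thinned to the control mean per cell it held 114 *Sst*-positive and 662 *Sstr2*-high cells. Over all cells, the highest count in 1 cell was 9 *Sst* and 8 *Sstr2* transcripts in the control and 35 and 49 in the KO.

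*Sst*-positive cells gathered near the brain surface, in a dense field on each side at the outer flank of the section that ran from the subpallium into the adjoining edge of the cortex. Their median distance from the brain surface was 233 µm in the control (quartiles 168 and 304 µm) and 225 µm in the KO (152 and 364 µm). *Sstr2*-high cells lay deeper, at a median of 591 µm in the control (450 and 949 µm) and 483 µm in the KO (419 and 619 µm), against 522 and 515 µm for all cells over the minimum, each taken over cells inside the brain outline. They formed a band along the inner, ventricular face of the cortex that continued around its medial wall. In the control, 39 *Sst*-positive cells lay on one side of the midline and 61 on the other, and 69 and 240 *Sstr2*-high cells, so the control's sides were unequal. In the KO the corresponding numbers were 474 and 558, and 2748 and 2537. The control's sides also differed in depth of data. All pallial cells of its first side had a median of 14 transcripts and 32.7% passed the minimum, against 23 and 57.5% on the second. In the KO these were 91 and 95.7%, against 106 and 96.4%. The part of this in the control's unequal counts was not tested.

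**Figure D1:**
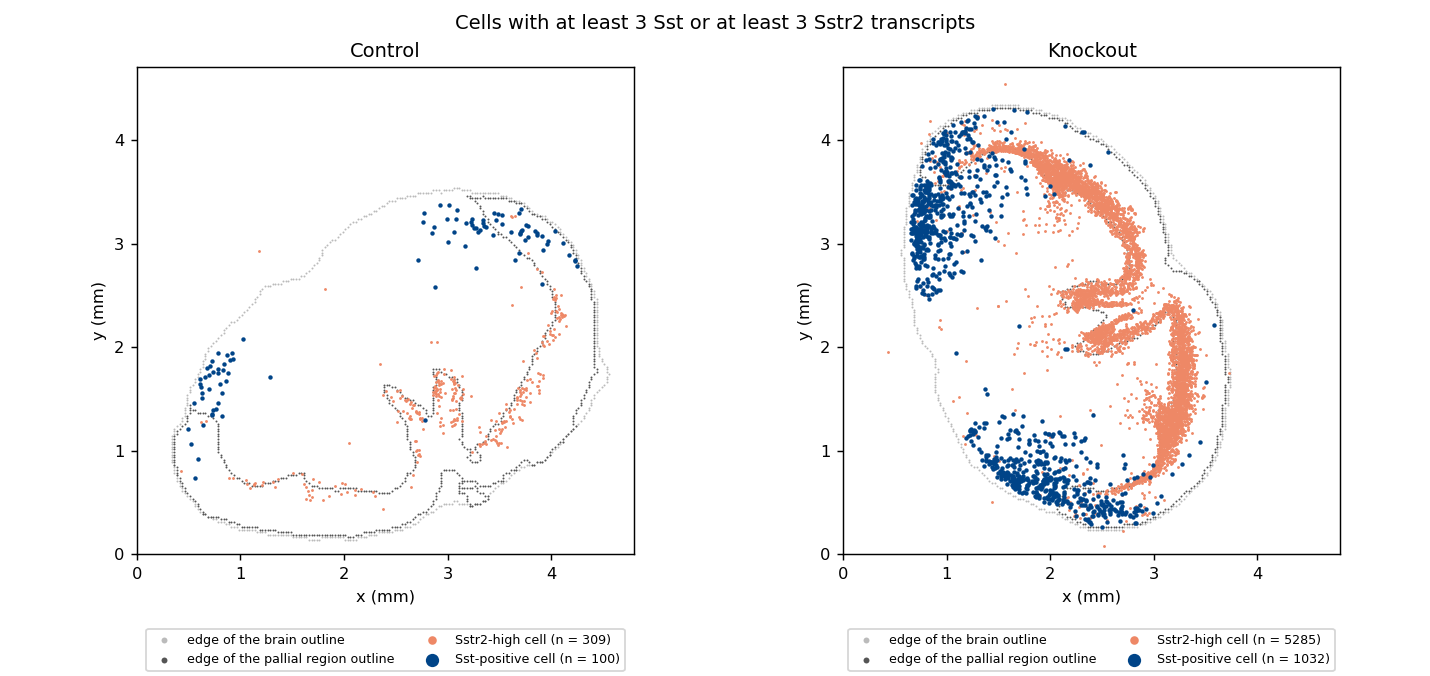
Positions (mm) of *Sst*-positive cells (blue, at least 3 *Sst* transcripts) and *Sstr2*-high cells (orange, at least 3 *Sstr2* transcripts) in the control section (left, 100 and 309 cells) and the KO section (right, 1032 and 5285 cells), with the edges of the brain outline (light grey) and of the pallial region (dark grey). Blue cells sit in fields at the outer flanks and orange cells in a band along the inner face of the cortex in both sections.

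Within the lateral wall of the pallial region, over 600 µm from the midline, relative depth was measured from the outer edge (0) to the inner edge (1). It was split into 10 bins. The outer edge was the part near the brain surface. The inner edge was all the rest, so it took in the border with the subpallium as well as the ventricular face. Cells near that border could thus have a high depth away from the ventricle. *Sstr2* transcripts lay close to the inner edge, with a median depth of 0.86 in the control (0.84 to 0.86, 1803 transcripts) and 0.85 in the KO (0.85 to 0.86, 24157 transcripts). The innermost 2 bins held 63.4% of its transcripts in the control and 63.5% in the KO, and the outermost 2 bins 3.22% and 1.71%. The control level rose from 469 counts per 1000000 panel transcripts (CPM) in the outermost bin to 19343 in bin 9 and 21807 in bin 10, and the KO level from 400 to 30670 and 29297. The intervals of bins 9 and 10 overlapped in the control (17597 to 21216 and 20215 to 23492), whereas in the KO bin 9 was the higher one (29928 to 31426 against 28690 to 29913).

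*Sst* showed no such gradient. Its median depth was 0.41 in the control (0.40 to 0.46, 487 transcripts) and 0.43 in the KO (0.42 to 0.45, 2597 transcripts). The largest share of any bin was that of the outermost one, 16.8% in the control and 14.7% in the KO, and each of the other bins held between 3.90% and 12.3% in the control and between 6.89% and 13.6% in the KO. The innermost bin, where *Sstr2* was most frequent, had the lowest *Sst* level in both sections, 597 CPM (359 to 932) and 592 CPM (508 to 685), against 1601 CPM (1274 to 1988) and 966 CPM (871 to 1068) in the outermost bin. The interval of the innermost bin overlapped that of the next lowest bin in both sections. By level the outermost bin was not the highest. The highest was bin 7 in the control (1833 CPM, 1395 to 2365), which overlapped the outermost bin. In the KO it was bin 6 (1331 CPM, 1196 to 1478), which lay above the outermost bin.

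Other genes of known place put these profiles in order. *Eomes*, the transcription factor of IPCs, had a median depth of 0.87 in the control (167 transcripts) and 0.94 in the KO (3840), so in the KO its median lay inside that of *Sstr2*, while in the control the intervals of *Eomes* (0.83 to 0.91) and *Sstr2* overlapped. *Unc5d*, a netrin receptor of young projection neurons on their way out of the germinal zone, had a median of 0.77 and 0.79, outside that of *Sstr2*. *Tbr1*, a transcription factor of deep-layer neurons, had 0.43 and 0.41, and *Lhx6*, the transcription factor of MGE-derived interneurons, 0.32 and 0.35. *Sox9*, a gene of radial glia, had 0.70 in the control and 0.88 in the KO, where it lay nearer to *Sstr2* than *Unc5d* or *Eomes* did. Of these genes, *Lhx6* and *Tbr1* were the nearer ones to *Sst*, and *Unc5d*, *Eomes* and *Sox9* to *Sstr2*.

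**Figure D2:**
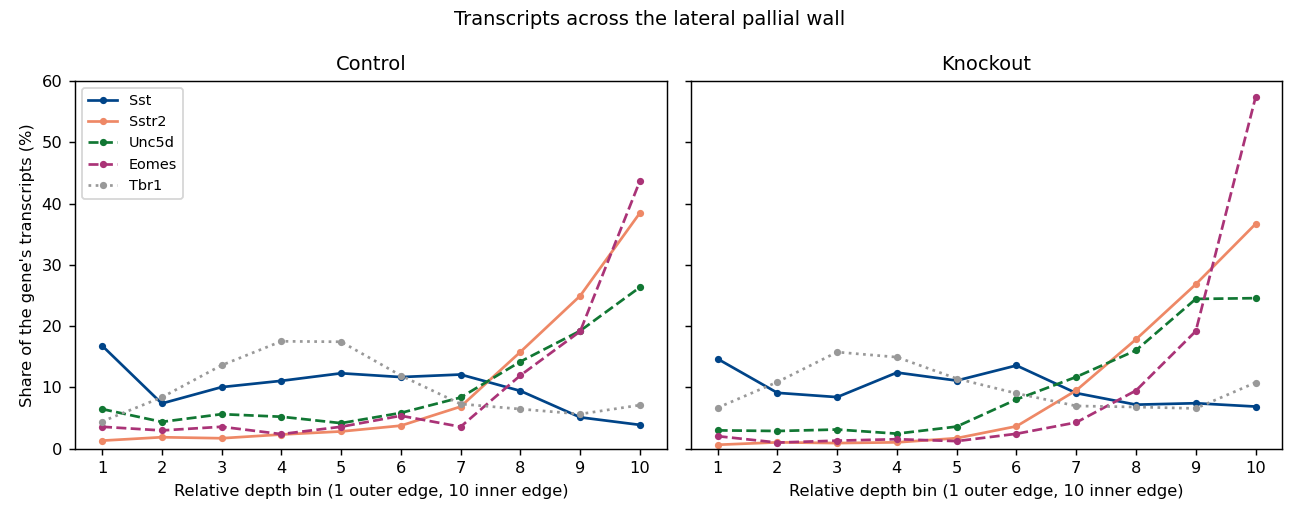
Share (%) of each gene's transcripts per bin of relative depth in the lateral pallial wall, from bin 1 at the outer edge to bin 10 at the inner edge, in the control (left) and KO (right) section. *Sstr2* climbs towards the inner edge to 38.5% and 36.7% in bin 10, with *Eomes* and *Unc5d*, whereas *Sst* has its highest share, 16.8% and 14.7%, in bin 1.

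To ask which cells carried the transcripts, cells of both sections were clustered without *Sst* and *Sstr2*, so that neither gene defined a cluster. Of 25 clusters, 24 held at least 100 cells in both sections, and 13 could be named from markers. Clusters are called here by genes among their 3 leading ones or by their number.

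*Sst* was highest in 2 clusters. The first, cluster 2, with *Elfn1* and *Cpne4* among its 3 leading genes, had 3394 CPM in the control (3158 to 3644) and 4086 in the KO (3978 to 4197). It held 38.1% of all *Sst* transcripts in the control and 48.9% in the KO, and 53 of 100 and 651 of 1032 *Sst*-positive cells. *Elfn1* encodes a synaptic protein of somatostatin interneurons, but only 2 markers of the MGE interneuron list were among its top 10 genes and the cluster stayed unnamed. It lay mostly outside the cortex, with 5.67% of its control and 2.14% of its KO cells in the pallial region.

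The second, cluster 11, led by *Slc17a7*, *Nr4a2* and *C1ql3*, had 2507 CPM in the control (2217 to 2824) and 2453 in the KO (2338 to 2571). It was named deep-layer neuron-like, and 94.4% and 95.6% of its cells were pallial. It held 13.5% and 15.5% of all *Sst* transcripts, but 48.9% and 60.3% of those in pallial cells over the minimum. *Slc17a7* encodes the vesicular glutamate transporter VGLUT1 and *Nr4a2* marks subplate and claustral neurons, whereas *Sst* is best known from GABAergic cells. The *Sst*-positive cells of this cluster also carried GABAergic transcripts: 95.7% of 23 control and 93.2% of 191 KO cells had at least 1 transcript of *Gad1* or *Gad2*, which encode the enzymes of GABA synthesis, against 20.7% and 40.0% of its other cells. *Lhx6* was found in 69.6% and 75.9% of them, against 11.3% and 24.6%. *Slc17a7* itself was found in 73.9% and 59.2% of them, against 40.4% and 49.6% of the other cells. The *Sst*-positive cells were also the deeper ones, at a median of 77 and 239 transcripts against 38 and 147, and the part of depth in these shares was not tested.

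Below these 2 the order was less clear. The MGE interneuron-like cluster, led by *Dlx1*, *Lhx6* and *Sp9*, had 1754 CPM in the control (1436 to 2121) and 861 in the KO (768 to 961), and 5.2% and 3.77% of its cells were pallial. In the control its interval overlapped that of the OPC-like cluster led by *Gpr17*, *Olig1* and *Bcan* (1346, 974 to 1813), and the same pair overlapped in the KO (1055, 917 to 1208), with the OPC-like cluster the higher. In the control, each of the 7 clusters from this one down to that led by *Irs4* overlapped its neighbour in level. At the low end, the cluster led by *Unc5d*, *Pou3f2* and *Nos1* had 38.5 CPM in the control (3 transcripts, 7.95 to 113) and 103 in the KO (81.3 to 128). Microglia-like cells, which do not make somatostatin, had 197 and 224 CPM and vascular-like cells 223 and 309 CPM, so a low *Sst* level was also read in outlines of these cells.

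*Sst*-positive cells as a whole carried genes of GABAergic interneurons. *Gad1* or *Gad2* was found in 82.0% of the 100 control and 96.6% of the 1032 KO cells, against 26.5% and 44.0% of all other cells, and *Lhx6* in 61.0% and 88.4%, against 14% and 21.5%. *Nxph1*, a neurexophilin of interneurons, was found in 43.0% and 50.2%, and *Npy*, encoding another interneuron peptide, in 40.0% and 65.5%, against 3.08% and 8.19% of other cells. Genes of projection neurons were also more often found in them: *Slc17a7* in 19.0% and 13.8%, against 4.10% and 6.76% of other cells, *Cux2* in 38.0% and 65.5%, against 12.9% and 30.7%, and *Tbr1* in 30% and 41.1%, against 22.3% and 31.8%. The part of depth in these shares was not tested. Their median totals were 54 and 203 transcripts, and those of the other cells 34 and 108.

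*Sstr2* was highest in 3 clusters, in the same order in both sections. The first, cluster 4, led by *Unc5d*, *Pou3f2* and *Nos1* and named upper-layer or immature projection neuron-like, had 19368 CPM in the control (18403 to 20371) and 26358 in the KO (25996 to 26723), and held 33.9% and 46.3% of all *Sstr2* transcripts. Its cells were 97.5% and 98.9% pallial, at a median depth of 0.72 and 0.73. The second, cluster 20, led by *Calb2*, *Prokr2* and *Cemip* and unnamed, had 18557 CPM (17212 to 19979) and 20013 CPM (19449 to 20589), and 85.3% and 94.5% of its cells lay in the medial 600 µm strip of the pallial region. The third, cluster 10, led by *Hopx*, *Aldoc* and *Eomes*, had 9282 CPM (8549 to 10060) and 11467 CPM (11168 to 11772). It was named radial glia-like by 7 of its top 10 genes, but *Eomes*, the IPC gene, was among its 3 leading genes. Only 22.3% of its control and 45.8% of its KO cells were pallial, and these had 16685 and 17028 CPM. In the control the first 2 overlapped, and in the KO all 3 were apart.

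The second cluster held 15.8% of control and 10.9% of KO *Sstr2* transcripts and the third 13.3% and 12.7%. Deep-layer neuron-like cells led by *Mc4r*, *Fezf2* and *Ntsr1*, which share the pallial region with them, had 1228 CPM in the control (1071 to 1401) and 996 in the KO (940 to 1056). Among clusters with under 1% of their cells in the pallial region, the highest level was that of the striatal projection neuron-like cluster led by *Drd2*, *Adora2a* and *Syt6*, where *Drd2* and *Adora2a* mark the indirect pathway, with 2181 CPM (1836 to 2572) and 3033 CPM (2869 to 3204), against 612 and 684 CPM in the other striatal projection neuron-like cluster, which had *Rxrg* and *Tac1* among its 3 leading genes. The clusters led by *Hdc*, *Slc7a11* and *Myh8* had between 37.2 and 84.3 CPM.

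**Figure D3:**
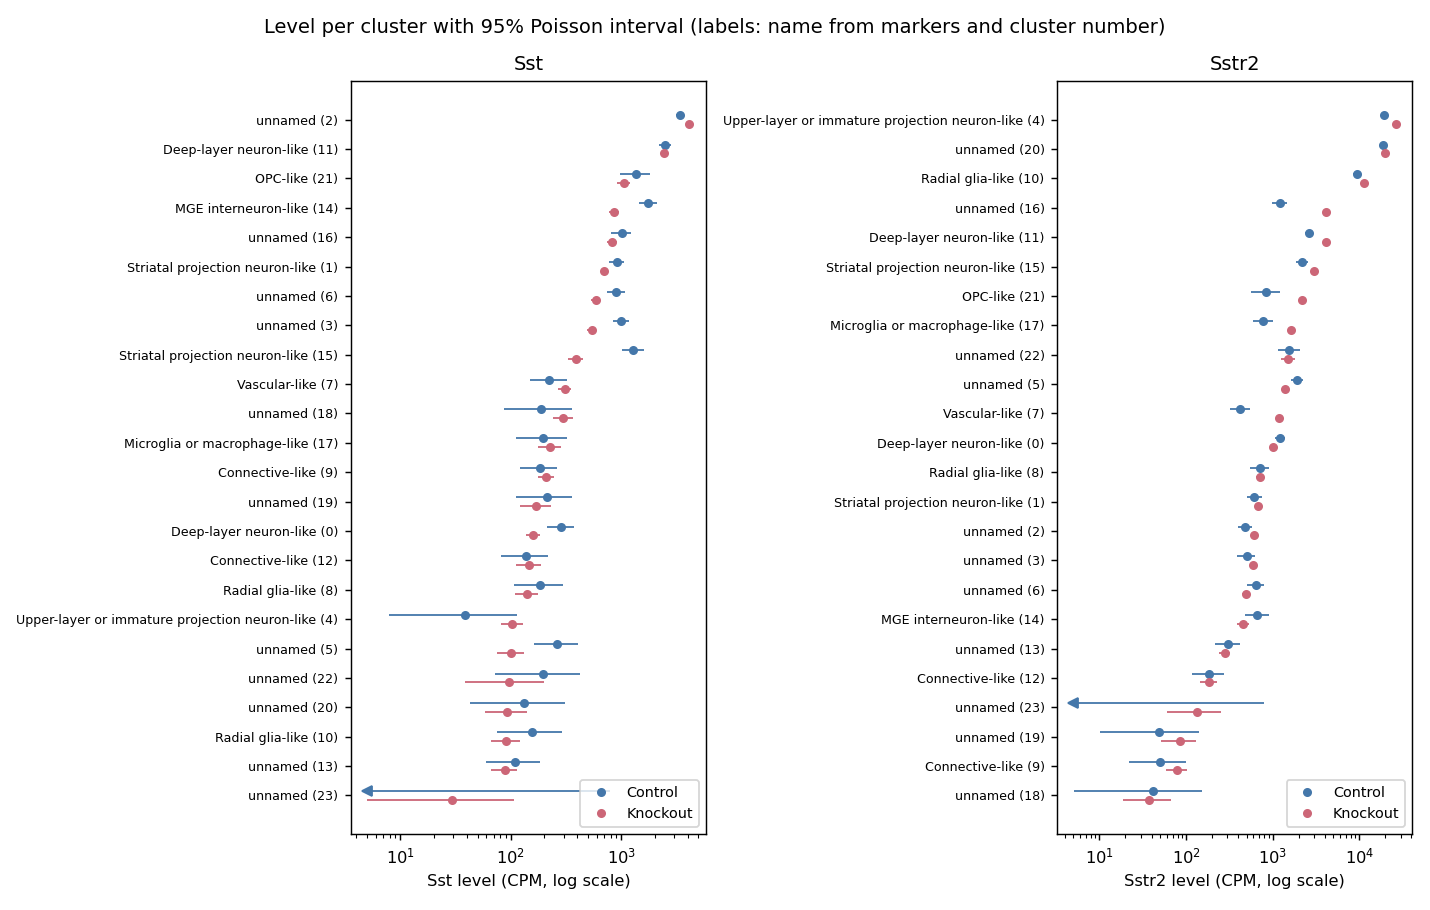
Level of *Sst* (left) and *Sstr2* (right) in CPM on a log scale in each of the 24 clusters with at least 100 cells in both sections, control in blue and KO in red, with 95% Poisson intervals; arrows mark clusters with 0 transcripts, and clusters are ordered by the KO level. Rows carry the cluster's number and, where it had one, its name from markers. *Sst* peaks in clusters 2 and 11, and *Sstr2* in clusters 4, 20 and 10.

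*Sstr2*-high cells differed from other cells in the genes of young cortical neurons and their progenitors. *Igfbpl1*, a gene of the developing forebrain, was found in 66.0% of 309 control and 92.7% of 5285 KO *Sstr2*-high cells, against 18.7% and 46.7% of other cells. *Eomes* was found in 12.9% and 38.7%, against 1.52% and 5.19%, and *Unc5d* in 11.3% and 53.2%, against 2.35% and 10.9%. *Gad1* or *Gad2* went the other way, at 5.83% and 23.3% against 26.7% and 45.7%. Median totals were 39 and 127 transcripts in *Sstr2*-high cells and 34 and 108 in the others. The other cells were those of the whole section. Of *Sstr2*-high cells 84.8% (control) and 86.2% (KO) were pallial, against 24.9% and 29.9% of all cells over the minimum. The part of region in these shares was not tested.

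Over the 24 clusters, the panel genes most like each member in level were found from Pearson's r of log2(CPM + 10), taking the lower r of the sections as a description without a test. For *Sst* they were *Nxph1* (0.89 in the control, 0.86 in the KO), *Grik1* (0.86 and 0.83), *Olfm3* (0.84 and 0.83), *Chrm2* (0.78 and 0.78) and *Ntm* (0.77 and 0.77), and the least like were *Hpse*, *Gem* and *Stard5* (down to -0.73). For *Sstr2* they were *Igfbpl1* (0.89 and 0.81), *Unc5d* (0.75 and 0.73), *Kctd4* (0.72 and 0.73), *Eomes* (0.84 and 0.71) and *Slc17a6* (0.75 and 0.71), and the least like *Sulf2*, *Crabp2* and *Adgrg6* (down to -0.79). *Sst* and *Sstr2* themselves had r of 0.23 in the control and 0.03 in the KO. The clusters share 2 libraries of very different depth.

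The receptor's level was then followed in cells chosen by single genes of IPCs, young projection neurons and radial glia. Pallial cells with at least 2 *Eomes* transcripts had 34195 *Sstr2* CPM in the control (24539 to 46390, 30 cells) and 31364 in the KO (30672 to 32067, 1710 cells). Cells with at least 2 *Unc5d* and no *Eomes* transcripts had 18330 (12080 to 26669, 39 cells) and 23182 (22619 to 23756, 1820 cells). Cells with at least 2 transcripts of *Sox9* or *Hopx*, genes of radial glia, and no *Eomes* had 11094 (9557 to 12809, 454 cells) and 8307 (7935 to 8692, 1521 cells). A cell could belong to both of the last sets. In the KO the *Sox9* or *Hopx* set had a median depth of 0.63 (0.59 to 0.68). It lay farther out than the *Unc5d* set at 0.76 (0.74 to 0.77), while in the control the 2 overlapped. Pallial cells of the *Hopx*-led cluster had 16685 and 17028 CPM. Whether the *Sox9* or *Hopx* set held radial glia alone was not tested.

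Pallial cells with none of these 4 genes had 4617 CPM (4423 to 4817) and 3761 CPM (3679 to 3845). *Eomes*-positive cells were thus higher than such cells by 2.89 on the log2 scale in the control (2.35 to 3.39) and by 3.06 in the KO (3.0 to 3.12). The step from *Eomes*-positive to *Unc5d* cells was larger than the counting intervals in the KO only, since 30 and 39 cells in the control left the intervals overlapping. At least 1 *Sstr2* transcript was found in 53.3% of the control and 87.2% of the KO *Eomes*-positive cells, at median totals of 37.5 and 129 transcripts, against 11.8% and 18.3% of cells with none of the 4 genes, at 32 and 94.

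Most *Sstr2*-high cells were not *Eomes*-positive at this depth. Of the pallial *Sstr2*-high cells, 6 of 262 (2.29%, 0.84 to 4.92%) in the control and 998 of 4556 (21.9%, 20.7 to 23.1%) in the KO were *Eomes*-positive, and 1494 of 4556 (32.8%) in the KO held at least 2 *Unc5d* transcripts. Seen from the other side, 6 of 30 control cells and 58.4% of KO *Eomes*-positive cells were *Sstr2*-high.

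Few cells passed the minimum of both genes. In the pallial region 0 of 35 control *Sst*-positive cells were *Sstr2*-high, which allows a share of up to 8.57% by the limit of 3 counts and 10.0% by the exact binomial interval, and 3 of 255 (1.18%, 0.24 to 3.40%) in the KO. Among pallial cells with neither *Sst* nor *Lhx6* the share was 1.96% in the control, inside the limits of that 0, and 15.5% in the KO. At least 1 *Sstr2* transcript was found in 21.6% of KO pallial *Sst*-positive cells (16.7 to 27.1%), against 34.3% of cells with neither gene, and outside the pallial region in 10.2% against 7.22%, at median totals of 195 and 106 transcripts. The *Sstr2* level of pallial *Sst*-positive cells was 808 CPM in the control (97.9 to 2920, from 2 transcripts) and 1091 in the KO (847 to 1384, from 68). Pallial cells with at least 2 *Lhx6* and no *Sst* transcripts had 2115 CPM (1489 to 2916) and 7042 CPM (6771 to 7320), and cells with neither gene 6179 (5955 to 6410) and 10282 (10163 to 10403). Relative to cells with neither, *Sst*-positive cells were lower by 2.93 on the log2 scale in the control, with an interval from -6.03 to -1.03, and by 3.24 in the KO (-3.62 to -2.88). Called at 1 or 2 *Sst* transcripts, the KO difference was -1.50 or -2.58. Pallial *Sst*-positive cells had median totals of 71 (control) and 221 (KO) transcripts, and pallial cells with neither gene 32 and 94. The part of depth in the difference was not tested.

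Outside the pallial region the gap was smaller in the KO and could not be sized in the control. There *Sst*-positive cells had 0 *Sstr2* transcripts in 65 control cells (interval up to 1129 CPM), and 586 CPM in 777 KO cells (475 to 715), against 811 CPM and 995 CPM in cells with neither gene. Within cluster 2, *Sst*-positive and *Sst*-negative KO cells had 579 CPM (462 to 717) and 599 CPM (550 to 652), which overlapped. Within the pallial cluster led by *Slc17a7* they had 1179 CPM (898 to 1521) and 4906 CPM (4717 to 5100). The low receptor level of *Sst*-positive KO cells was therefore seen within the pallial cluster and not within the one that lay mostly outside the cortex.

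**Figure D4:**
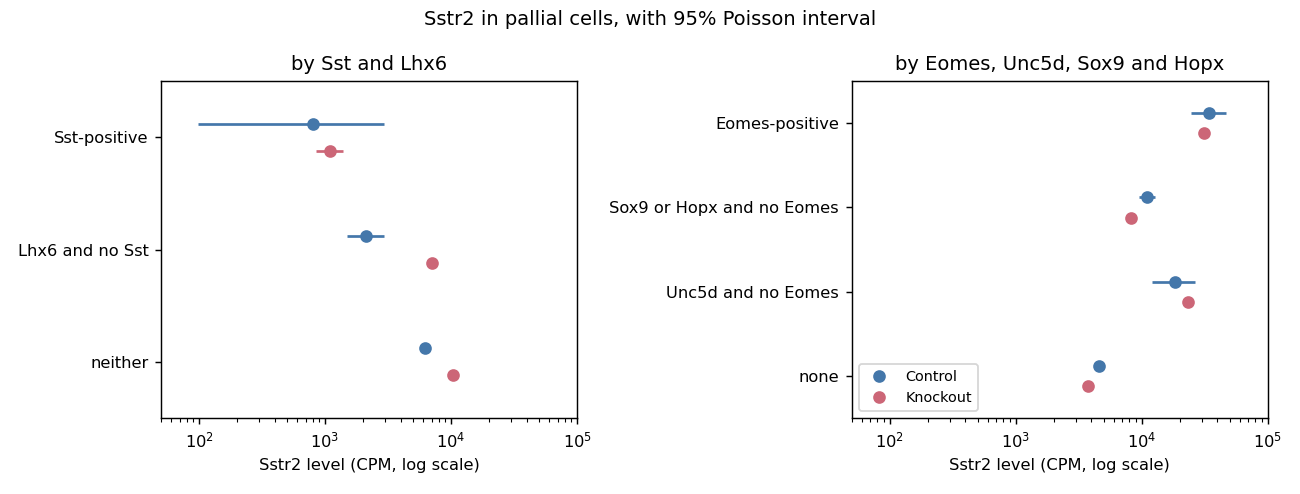
*Sstr2* level (CPM, log scale) of pallial cells with 95% Poisson intervals, control in blue and KO in red; left, cells with at least 3 *Sst* transcripts, cells with at least 2 *Lhx6* and no *Sst*, and cells with neither; right, cells with at least 2 *Eomes*, with *Sox9* or *Hopx* and no *Eomes*, with *Unc5d* and no *Eomes*, and with none. The lowest set is the *Sst*-positive one (808 and 1091 CPM) and the highest the *Eomes*-positive one (34195 and 31364 CPM).

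Distances were measured in the plane of the section. In the lateral pallial wall, *Sstr2*-high cells lay at a median of 766 µm from the nearest *Sst*-positive cell in the control (717 to 850 µm, 136 cells) and 227 µm in the KO (220 to 235 µm, 3039 cells). Cells with 0 *Sstr2* transcripts lay nearer, at 605 µm (570 to 637 µm) and 108 µm (106 to 110 µm). Only 1.47% of the control and 8.03% of the KO *Sstr2*-high cells had an *Sst*-positive cell within 50 µm, against 10.2% and 26.5% of cells with 0 *Sstr2* transcripts. The difference in medians depended on how *Sst*-positive cells were called: it turned to -35.6 µm in the control at 5 transcripts, and in the KO it was 14 µm at 1 and 49.2 µm at 2.

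Over the whole pallial region, medial wall included, the medians ran in opposite directions. Within each control hemisphere, however, the interval of the difference took in 0. *Sstr2*-high cells lay at 409 µm in the control (378 to 474 µm, 262 cells) and 276 µm in the KO (271 to 282 µm, 4556 cells), and cells with 0 *Sstr2* transcripts at 521 µm (498 to 543 µm) and 149 µm (146 to 151 µm). The shares within 100 µm ran the same way in both sections, at 5.34% and 14.4% of *Sstr2*-high cells against 20.3% and 36.1% of the others. The control median rests on 100 *Sst*-positive cells and turned when the minimum was lowered: with *Sst*-positive cells called at 1 or 2 transcripts, the *Sstr2*-high cells of the control were 28.5 and 51.9 µm farther away than the others.

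The sections differed in the number of *Sst*-positive cells, so their distances were also set side by side at a similar number. With KO transcripts thinned to the control mean per cell, 114 KO *Sst*-positive cells were left, and the medians in the lateral wall became 737 µm for *Sstr2*-high cells and 584 µm for cells with 0 transcripts, next to 766 and 605 µm in the control. In the whole pallial region the thinned KO medians were 921 and 855 µm, with 0.677% of *Sstr2*-high and 13% of other cells within 100 µm, next to medians of 409 and 521 µm in the control, so there they stayed apart.

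The gap was also seen within the inner depth bins. Among cells of the same depth bin, *Sstr2*-high cells were farther from *Sst*-positive cells in bins 6 to 10 of the KO, by 68.5 to 195 µm, and in bins 8, 9 and 10 of the control, by 575 to 679 µm, the bins with at least 20 *Sstr2*-high cells being 5 to 10 in the KO and 8 to 10 in the control. In bins 1 to 5 of the KO the few *Sstr2*-high cells (7 to 30 per bin) lay nearer, by 29.2 to 99.4 µm.

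From the ligand's side, 53.3% of the 255 pallial *Sst*-positive cells of the KO had an *Sstr2*-high cell within 50 µm (47.0 to 59.6%) and 92.2% within 100 µm, against 59.4% and 75.9% of pallial cells with 0 *Sst* transcripts. In the control these shares were 5.71% (0.70 to 19.2%) and 14.3% of 35 cells, against 23.3% and 36.7%. At 100 µm the share of *Sst*-positive cells was thus above that of cells with 0 *Sst* transcripts in the KO and below it in the control. Most pallial *Sst*-positive cells of the KO had a receptor-high cell within 100 µm, while 14.4% of receptor-high cells had an *Sst*-positive cell within it. The KO held 4556 pallial *Sstr2*-high cells against these 255, and the part of the numbers in the 2 shares was not tested.

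**Figure D5:**
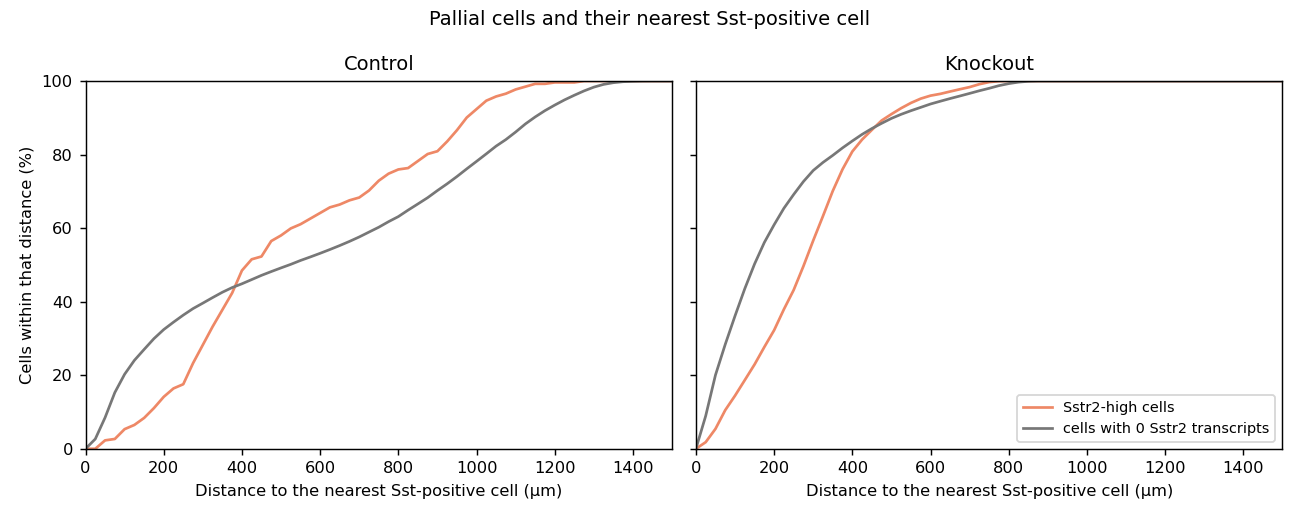
Cumulative share (%) of pallial cells by the distance (µm) to the nearest *Sst*-positive cell in the control (left) and KO (right), for *Sstr2*-high cells (orange) and cells with 0 *Sstr2* transcripts (grey). At 100 µm the orange line is below the grey one in both sections (5.34% against 20.3%, and 14.4% against 36.1%), and the lines cross between 375 and 400 µm in the control and between 450 and 475 µm in the KO.

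Between the sections, the level of *Sst* was near equal over the whole section and *Sstr2* was higher in the KO. *Sst* had 863 CPM in the control (826 to 902, 2003 transcripts) and 827 in the KO (812 to 842, 11070 transcripts), a log2 ratio of -0.06 (-0.15 to 0.03). *Sstr2* had 1917 CPM (1861 to 1974, 4448 transcripts) and 3271 CPM (3240 to 3301, 43784 transcripts), a log2 ratio of 0.77 (0.71 to 0.83). A ratio was called at 0.5 or more in size with at least 50 counts in both sections, which 19.4% of the 499 genes counted so met upwards and 9.42% downwards, and the *Sstr2* ratio stood at the 91.4th percentile of them.

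In the pallial region *Sst* fell short of a call, with 956 CPM (876 to 1042) and 729 CPM (702 to 757) and a log2 ratio of -0.39 (-0.57 to -0.21). This value moved with the cells counted, to -0.84 at a minimum of 50 transcripts per cell, which would be a call, and to 0.029 and 0.20 between control hemisphere 1 and the KO hemispheres. *Sstr2* had 5707 CPM (5508 to 5911) and 9286 CPM (9189 to 9384), a log2 ratio of 0.70 (0.64 to 0.77), where 18.2% of 406 genes were called higher and 14.5% lower. Outside it, *Sst* had 835 and 865 CPM (0.05, -0.05 to 0.16) and *Sstr2* 754 and 907 CPM (0.27, 0.16 to 0.38), where 21.3% and 8.63% of 498 genes were called.

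The size of the *Sstr2* ratio hung on which cells were counted. With no minimum of transcripts per cell it was 0.38 over the section and 0.35 in the pallial region, below the call, and with a minimum of 50 it was 1.60 and 1.39. Its percentile among panel genes in the pallial region was 76.3 without a minimum, 89.2 at 20 and 95.6 at 50. Of the pallial cells, the minimum of 20 kept 46.3% (control) and 96.0% (KO), and cells of the *Unc5d*-led cluster had a median of 27 transcripts in the control, under the 32 of all pallial cells over the minimum. Outside the pallial region the ratio was -0.06 without a minimum and 1.08 at 50. Over all decoded molecules, in cells or not, it was 0.49 for the section and 0.44 for the pallial region.

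The pallial cells were also made up differently. The *Unc5d*-led cluster was 18.4% of control pallial cells over the minimum (17.8 to 19.1%) and 26.5% of those of the KO (26.0 to 27.0%), and the *Hopx*-led one 3.37% and 6.68%. At the control's makeup of clusters, the pallial log2 ratio of *Sstr2* was 0.38 and that of *Sst* -0.01. Both weightings were chosen after the data were seen.

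Cluster by cluster, 15 clusters had at least 50 *Sstr2* counts in both sections. The ratio was 0.5 or more in 4 of them and -0.5 or less in 0, with a median log2 ratio of 0.30. The share of all panel genes that met this cut within clusters was not computed, so the count stands without a background. The *Unc5d*-led cluster had 0.44 (0.35 to 0.54), the *Hopx*-led one 0.30 (0.15 to 0.46) and the *Calb2*-led one 0.11 (-0.04 to 0.26). The class of the *Unc5d*-led cluster lay further apart under other settings, with 12359 CPM in the control and 26997 in the KO at a minimum of 50, and 7765 and 14890 CPM by marker counts. The highest ratio was 1.79 (1.46 to 2.14), in cells with *Npas1*, *Reln* and *Ndnf* as leading genes, which stayed unnamed because 3 markers of the MGE interneuron list tied with 3 of another list. The next were the vascular-like cells at 1.47 (0.99 to 1.97), the microglia-like cells at 1.08 (0.59 to 1.60) and the *Slc17a7*-led cluster at 0.65 (0.43 to 0.87).

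In microglia-like and vascular-like cells the *Sstr2* level differed by region. Microglia-like cells had 3269 CPM in the control pallial region (2206 to 4667) and 7761 in the KO (7067 to 8504), but 434 and 289 CPM outside it, and vascular-like cells 1285 and 3694 CPM inside and 227 and 429 CPM outside. Of the 68 *Sstr2*-high microglia-like cells of the KO, 94.1% were pallial, 57.4% held *Unc5d* and 83.8% held *Tbr1*, against 19.1%, 4.27% and 13.7% of the other microglia-like cells. The part of such molecules in the ratios of the other clusters was not tested.

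By depth, the ratio was within 0.23 of 0 in the outer 4 bins, where every interval took in 0. It was 0.71 in bin 5 (0.18 to 1.28), 1.30 in bin 6 (0.86 to 1.76), 1.43 in bin 7 (1.12 to 1.76) and 1.01 in bin 8 (0.80 to 1.22), and smaller at the inner edge, with 0.67 in bin 9 (0.50 to 0.84) and 0.43 in bin 10 (0.29 to 0.57). The ratio was thus highest on the outer flank of the receptor's band, whereas the levels themselves lay furthest apart in bin 9, at 19343 CPM in the control and 30670 in the KO.

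*Sst* had at least 50 counts in both sections in 9 clusters, of which the ratio was 0.5 or more in 0 and -0.5 or less in 5. Here too the share of all panel genes within clusters was not computed, so this count has no background. The cluster with most *Sst* was higher in the KO by 0.27 (0.13 to 0.41), and the *Slc17a7*-led one did not differ beyond counting error (-0.03, -0.27 to 0.21). Lower in the KO were the MGE interneuron-like cluster (-1.03, -1.47 to -0.58) and clusters led by genes of other kinds, with the largest ratio in that led by *Drd2* (-1.73, -2.27 to -1.18). The MGE interneuron-like difference did not hold at a minimum of 50, with 983 CPM in the control and 1052 in the KO. Nor did it hold by marker counts, with 2934 and 2714 CPM. At clustering resolution 1.2 the KO level moved too, but it stayed below the control's interval at the main setting (1436 to 2121 CPM).

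Thinned to 25 transcripts per cell, which left out 23.4% of control and 1.76% of KO pallial cells over the minimum, 10.7% of control pallial cells (10.1 to 11.3%) and 17.3% of KO pallial cells (16.8 to 17.7%) held *Sstr2*, against 14.5% and 33.2% before thinning. The thinned share was 2.12% (1.39 to 3.09%) and 4.30% (3.48 to 5.24%) in microglia-like cells, at median totals of 45 and 131 against 32 and 101 in the pallial region. For *Sst* the thinned pallial shares were 1.92% (1.67 to 2.20%) and 1.18% (1.06 to 1.31%), against 0.571% and 0.560% in microglia-like cells, and before thinning 2.76% and 4.59%. The thinned shares ran in the direction of the CPM for both genes, and the unthinned *Sst* share did not.

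Of the somatostatin system, *Sst*, *Sstr2*, *Sstr3* and *Sstr4* were on the panel, and *Cort*, *Sstr1* and *Sstr5* were not panel genes. In the pallial region *Sstr2* was the member called, higher in the KO, where 18.2% of all genes were called higher and 14.5% lower. That call was lost with no minimum per cell, over all molecules, in imaging plane 0 and at the control's makeup of clusters. The other receptors had log2 ratios of -0.22 (*Sstr3*, 181 and 1074 counts, -0.52 to 0.08) and -0.23 (*Sstr4*, 162 and 960 counts, -0.54 to 0.10). Over the whole section they had 0.02 (-0.17 to 0.21) and -0.07 (-0.21 to 0.08).

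Other peptide genes give the setting. Of 22 other neuropeptide precursors on the panel, 14 had enough counts in the pallial region and 0 were called, against 18.2% of all genes higher and 14.5% lower, with a median log2 ratio of 0.06, the highest being *Grp* (0.36), *Pomc* (0.31) and *Cck* (0.27) and the lowest *Nts* (-0.45), *Ucn3* (-0.31) and *Gnrh1* (-0.17). Outside it 7 of 22 were called higher and 0 lower, against 21.3% and 8.63% of all genes, led by *Tac1* (1.63), *Npy* (0.98) and *Gal* (0.63), the lowest being *Vip* (-0.16), *Cck* (-0.14) and *Ucn3* (-0.03), with a median of 0.38 against 0.16 for all genes counted.

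Of 34 other peptide receptors on the panel, 18 had enough counts in the pallial region, where 1 was called higher and 4 lower, against 18.2% and 14.5% of all genes, with a median of -0.15 against -0.03 for all genes counted. The highest were *Cckar* (0.52), *Crhr2* (0.22) and *Rxfp1* (0.21), all below *Sstr2*, and the lowest *Tacr3* (-0.75), *Crhr1* (-0.73) and *Ntsr1* (-0.59). Outside it 7 of 33 were called higher and 1 lower, against 21.3% and 8.63% of all genes, so that the share called higher was near that of all genes, led by *Hcrtr2* (1.62), *Rxfp2* (1.06) and *Brs3* (0.98), the lowest being *Tacr3* (-0.66), *Rxfp3* (-0.45) and *Prokr2* (-0.36).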

How the data were processed

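MERFISH was run on a MERSCOPE instrument with a panel of 500 genes on 1 control and 1 KO section. The deposited counts are whole numbers of decoded molecules per segmented cell, made by the authors' instrument run, with no normalization; the software and segmentation model are not given in the sources used here. Cell centres and volumes and the position and plane of every decoded molecule were deposited too. Cells came to 108533 and 110004, with 2842355 and 13437174 panel transcripts, blank barcodes made up 0.496% and 0.486%, and 0 cell identifiers were shared.

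Cells that held 20 or more panel transcripts entered the analysis, except that the pallial shares of all transcripts and of all cells and the highest count in 1 cell were taken over every segmented cell. Levels are counts per 1000000 panel transcripts (CPM), blanks left out. The pallial region was outlined on a grid of 25 µm after Gaussian smoothing (SD 50 µm). Cells were clustered on 498 genes with Seurat 5.3.0 in R 4.3.3 (log normalization, 30 principal components, reciprocal PCA of the sections, Louvain at resolution 0.8). A cluster was named where at least 3 markers of a list were among its top 10 genes, and more than of any other list. No doublet caller was run. The other steps used Python 3.11.15, numpy 2.4.6, scipy 1.17.1, pandas 2.3.3 and matplotlib 3.10.9, and were tested on simulated data. Distances are between cell centres in the plane. With 1 section per group no test was made. Intervals are exact Poisson, exact binomial (Clopper-Pearson) or order-statistic intervals at 95% and cover counting error only, and the limit of a count of 0 is 3 counts.

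The genes and lists were chosen with earlier results of these data known. *Sst*, *Sstr2* and the panel members of the somatostatin list are named throughout, with the 3 highest and 3 lowest members of the other lists, the 5 genes most and 3 least like each member, and the top 3 genes of a cluster, of which some are not reported here. Alternatives covered the minimum per cell, molecules outside cells, imaging plane 0, cell volume, hemispheres, clustering, positivity minimums and thinning. Weighting the KO by the control's makeup of clusters, and depth bins with at least 20 *Sstr2*-high cells, were added after the data were seen.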

Additional observations from a re-analysis of the deposited data

Results flagged for a closer look

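The distance from pallial *Sstr2*-high cells to the nearest *Sst*-positive cell ran in opposite directions in the sections. Relative to cells with 0 *Sstr2* transcripts, the median differed by -112 µm in the control, where *Sstr2*-high cells were nearer, and by 128 µm in the KO, where they were farther away. The difference between the sections was not tested. The control rests on 100 *Sst*-positive cells, and its direction turned with *Sst*-positive cells called at 1 or 2 transcripts. In each control hemisphere the interval of the difference took in 0 (-316 to 189 µm and -107 to 28.7 µm). In the lateral wall the control difference was 161 µm (80.6 to 280 µm), with *Sstr2*-high cells farther away.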

How the results depend on the processing

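No paired analysis was possible because each group had 1 section. Of 183 alternatives for 39 results, 73 stayed within counting error, 105 moved and 5 turned the direction of a distance difference. *Sst* ratios, which were not called, count as moved also where their sign changed, and the causes were not tested. The log2 ratio of *Sst* over the section was 0.042 with a minimum of 50, 0.13 in plane 0 and 1.99 per cell volume. In the pallial region it was -0.21 with no minimum, -0.84 at 50, -0.072 in plane 0, 1.78 per volume, 0.029, 0.20 and -0.63 for 3 of the 4 hemisphere pairs and -0.0089 at the control's makeup. That of *Sstr2* over the section was 0.38 with no minimum, 1.60 at 50, 0.49 over all molecules, 0.35 in plane 0 and 2.82 per volume. In the pallial region it was 0.35, 1.39, 0.44, 0.31 and 2.87, with 0.87, 0.85 and 0.64 for hemisphere pairs and 0.38 at the control's makeup. Per volume the panel median itself was 2.17 for the section and 2.14 for the pallial region. The pallial call of *Sstr2* was thus lost with no minimum, over all molecules, in plane 0 and at the control's makeup.

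The KO share of pallial cells with *Sstr2* over that of the control was 2.01 at 2 transcripts and 1.93 thinned to 50. MGE interneuron-like *Sst* was 983 CPM at a minimum of 50 and 2934 by marker counts in the control, and 995 at resolution 1.2, 1052 at 50 and 2714 by markers in the KO. *Sstr2* of the *Unc5d*-led class was 20459 CPM at resolution 1.2, 12359 at 50 and 7765 by markers in the control, and 26910 at resolution 0.4, 26733 at 1.2, 26997 at 50 and 14890 by markers in the KO. The median depth of *Sstr2* was 0.87 in control hemisphere 1, 0.88 with no minimum, 0.84 and 0.87 in the KO hemispheres and 0.86 in the thinned KO.

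The pallial distance difference was 28.5, 51.9 and -279 µm in the control with *Sst*-positive at 1, 2 and 5 transcripts, and 11.5, 71.4 and 77.1 µm in the KO, 101 µm with *Sstr2*-high at 1, 111 µm in hemisphere 2 and 65.9 µm thinned. In the lateral wall it was 55.2, 71.7 and -35.6 µm in the control at 1, 2 and 5, 420 µm in hemisphere 1, 302 µm as the median over depth bins and 589 µm over bins with at least 20 *Sstr2*-high cells. In the KO these were 14, 49.2 and 70.7 µm, 73.6 µm with *Sstr2*-high at 1, 165 and 53.5 µm in the hemispheres, 153 µm thinned, and 19.7 and 108 µm by bins. Outside the pallial region the KO difference turned to -23.5 µm with *Sstr2*-high at 1 and -27.6 µm in hemisphere 2.

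In the KO, *Sst*-positive cells were lower in *Sstr2* by -1.50 and -2.58 (log2) when called at 1 and 2 transcripts, and *Eomes*-positive cells higher by 2.80 when called at 1 and 2.46 thinned. Depth limits the control, where the *Sstr2* level of pallial *Sst*-positive cells rests on 2 transcripts.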
